A study of Mus musculus with 18 samples.

Results

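Vehicle-treated brown preadipocytes were compared between 4 h and 8 h of treatment, so that both sides of the comparison had received the same vehicle and differed in time. The comparison was made on the columns of the count table that the labels call Veh.4h and Veh.8h, with 3 libraries in each group, or 6 of the 18 libraries of the series. Every gene with enough counts in the 18 libraries was a member, which left 15071 of the 48023 genes in the table. Some genes therefore entered through libraries outside the comparison, such as Ucp1, which had 0 counts in all 6 libraries compared. The other 12 libraries were vehicle cells at 24 h and cells given fibroblast growth factor 6 (FGF6) for 4, 8 or 24 h, and they entered the fit to estimate the spread between libraries.

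The cells were a line of mouse brown preadipocytes, taken from the stromal vascular fraction of brown fat and immortalized with the SV40 T antigen, a viral protein that binds the p53 and retinoblastoma proteins. They were grown in DMEM with fetal bovine serum, and they were not differentiated. All groups shared the line and its SV40 T antigen, so no library came from cells without it. The composition of the vehicle, the time of the last medium change and the density of the cells were not given in the sources used here, and no library at 0 h was analysed here. Medium, density, time of day and time with vehicle therefore cannot be told apart in this comparison. The labels do not say whether the 3 libraries of a group came from separate cultures, so p-values measure the spread between these libraries, which may be technical. In bulk RNA, fewer cells expressing a gene and less RNA per cell cannot be told apart.

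As background, cultured fibroblast-like cells respond to fresh serum or medium in an ordered way. Immediate early genes such as Fos and Egr1 encode transcription factors that are made within minutes and decay within hours, and genes for feedback inhibitors of ERK signaling, for actin and adhesion proteins under the control of SRF and YAP, and for ribosome assembly follow them. Cells that pass the restriction point then express the E2F-driven genes of DNA replication, and later the genes of mitosis, which the DREAM complex represses through CHR elements and the activator NF-Y drives through CCAAT boxes in their promoters. Serum also resets the circadian clock, in which CLOCK and BMAL1 (Arntl) bind E-boxes and drive the Per, Cry, Nr1d and Dbp genes. Brown preadipocytes have the added feature that the factors Ebf2, Prdm16 and Cebpb set their later thermogenic fate.

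The 6 libraries held 27935230 to 31606650 counts, and common dispersion corresponded to a biological coefficient of variation of 0.0458. A floor of 3 counts equalled 0.0927 to 0.103 CPM (edgeR's measure of counts at a common library size, here scaled by TMM, the trimmed mean of M-values). The first principal component of the 6 libraries took 48.1% of the variance and separated 4 h from 8 h, and the second took 15.1% and separated the libraries numbered 1 from the others at both times. All 10 preadipocyte and fibroblast markers of the labelled cell type exceeded 1 CPM, with summed levels of 6223 to 6520 CPM at 4 h and 8863 to 9305 CPM at 8 h. Most of this sum and of its rise came from Col1a1 (means of 2237 and 3514 CPM) and Col1a2 (2317 and 3481 CPM). Col3a1 (log2 fold change 0.44), Pdgfra (0.46) and Thy1 (0.16) rose too. Pdgfrb (-0.037), Cd34 (-0.16), Ly6a (0.15), Lum (0.21) and Dcn (-0.068) did not pass an FDR of 0.05. Among 8 mature adipocyte markers, the brown fat gene Ucp1 and the adipokine gene Lep had 0 counts in all 6 libraries. Their summed level was 102 to 107 CPM at 4 h and 96.5 to 99.8 CPM at 8 h, most of it Fabp4 (means of 98.3 and 92.4 CPM). Among 8 immune markers, Adgre1 and Cd3e had 0 counts, Ptprc and Itgam had at most 1, and the summed level was 18.8 to 19.7 CPM at 4 h and 13.6 to 16.8 CPM at 8 h. Summed endothelial markers reached at most 1.74 CPM, epithelial markers at most 2.10 CPM and muscle markers 14.6 to 16.3 CPM at 4 h and 9.97 to 13.1 CPM at 8 h. The part of these marker levels in the results below was not tested. Positions below are on GRCm38, from the GENCODE M21 annotation. The strand setting of the counting was not given in the sources used here, so reads of a gene and of one that overlaps it on the other strand cannot be told apart, which concerns exons of Ccn2, Vcl, Fosl1, Dusp5, Lef1, Bhlhe41, Ccnd1, Rbl2, Txnip, Cebpb, Sqstm1, Mt2 and others named below. Mitochondrially encoded genes took 1.66 to 1.77% of counts at 4 h and 1.85 to 1.98% at 8 h.

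Between 4 h and 8 h, most immediate early, ERK feedback, ATF4 and NRF2 target and ribosome assembly genes of the lists below fell in vehicle cells, and the listed genes of mitosis and most of those of DNA replication rose. With edgeR's quasi-likelihood F test and Benjamini-Hochberg adjusted p-values over all genes, 6475 of 15071 genes passed an FDR of 0.05, which is 43% of those tested. Of these, 3198 were higher at 8 h (21.2%) and 3277 were lower (21.7%), and the median log2 fold change of all genes was close to 0. Most changes were small. Only 371 genes rose by at least 1.5-fold (2.46%) and 682 fell by at least 1.5-fold (4.53%), so larger changes were more often decreases. With 3 libraries against 3, an exact permutation test of a single gene cannot go below p = 0.1, so every adjusted p below comes from the fit across all genes and libraries. Across 15019 genes, the log2 fold change had a Spearman correlation of -0.22 with GC content and of 0.038 with exon length, as a description without a test. An offset that removes these trends left 6512 genes called, and its effect on named results is given in the closing section.

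**Figure D1:**
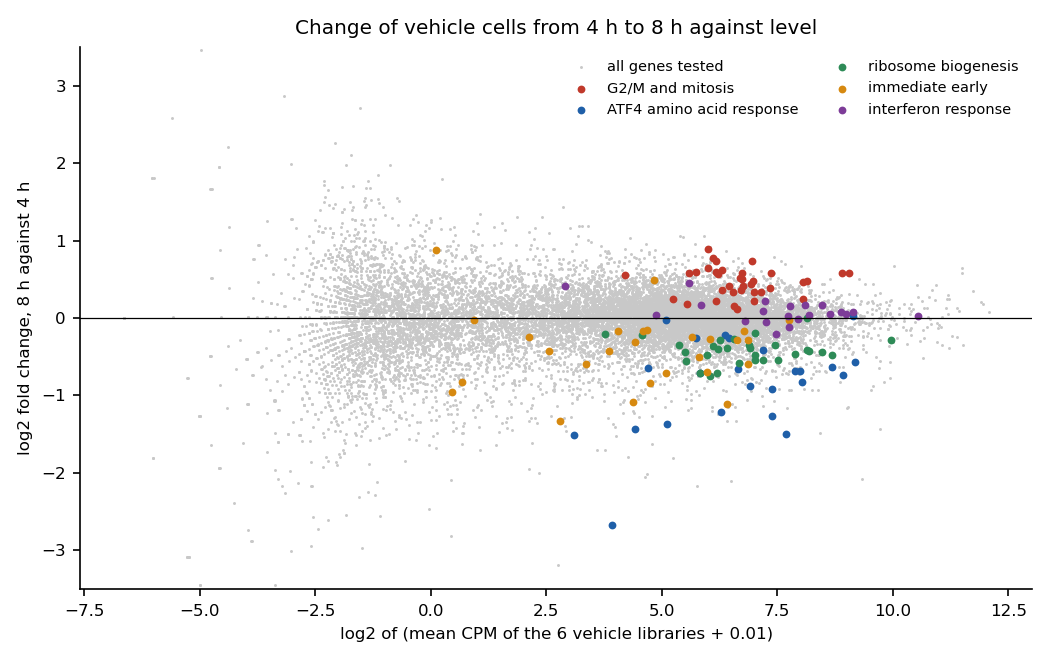
Each point is a gene, with the log2 of its mean level over the 6 vehicle libraries on the x axis and its log2 fold change at 8 h against 4 h on the y axis, where 5 genes of very low level lie beyond the axis. Genes of mitosis lie above 0, those of the ATF4 amino acid response, ribosome biogenesis and the immediate early response lie mostly below, and interferon response genes lie around 0.

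The largest decreases were in genes of secreted signals, amino acid and heme metabolism and activity-regulated genes. Genes given as the largest decreases or increases were required to have no overlap between groups, so their separation is a description and no added support. Nptx1 at chr11:119538719-119547753 (ENSMUSG00000025582), which encodes the secreted neuronal pentraxin 1, had 11.9, 13.4 and 11 CPM at 4 h and 1.04, 1.33 and 1.64 CPM at 8 h. Every library at 8 h was far below every library at 4 h (log2 fold change -3.19 ± 0.15 (SE), adjusted p = 1.1e-14). Nxph3, a secreted ligand of neurexins, had 2.33, 2.60 and 2.20 CPM at 4 h and 0.410, 0.350 and 0.240 CPM at 8 h, and its 8 h values stayed above the floor of 3 counts (log2 fold change -2.81 ± 0.22 (SE), adjusted p = 1.2e-10). Slc7a11 at chr3:49892526-50443614 (ENSMUSG00000027737) encodes the cystine-glutamate antiporter that feeds glutathione synthesis, and it had 23.2, 29.4 and 25.7 CPM at 4 h and 4.73, 4.00 and 3.53 CPM at 8 h. That is a 6.37-fold decrease with no overlap between groups (log2 fold change -2.67 ± 0.10 (SE), adjusted p = 2.6e-16). Hmox1 at chr8:75093621-75100589 (ENSMUSG00000005413), the heme-degrading enzyme heme oxygenase 1, was the most abundant gene among the decreases, with 972, 1082 and 1069.9 CPM at 4 h and 252, 242 and 244 CPM at 8 h. Its libraries lay close together within each time (log2 fold change -2.08 ± 0.046 (SE), adjusted p = 5.6e-21). Arc, an immediate early gene best known in neurons, had 83.2, 93.6 and 89.9 CPM at 4 h and 21.6, 19.7 and 18 CPM at 8 h, and the groups were well apart (log2 fold change -2.17 ± 0.063 (SE), adjusted p = 3.1e-18). Ccn2 at chr10:24595442-24598683 (ENSMUSG00000019997), the connective tissue growth factor gene and a classical YAP target, had 126, 159 and 153 CPM at 4 h and 33.1, 32.1 and 36.5 CPM at 8 h, again without overlap (log2 fold change -2.11 ± 0.081 (SE), adjusted p = 3.8e-16).

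The other 6 of the 12 largest decreases were in genes of lower level. The desmosomal plakophilin gene Pkp1 had 1.46, 1.95 and 1.5 CPM at 4 h and 0.347, 0.286 and 0.240 CPM at 8 h (log2 fold change -2.47). Nppc, which encodes C-type natriuretic peptide, had 2.24, 2.13 and 2.17 CPM at 4 h and 0.631, 0.254 and 0.650 CPM at 8 h (-2.09). These 8 h values of Pkp1 and Nppc lay within a few multiples of the floor. Sema7a, a membrane-anchored semaphorin, had 42.0, 41.0 and 38.3 CPM at 4 h and 11, 9.79 and 8.35 CPM at 8 h (-2.06). Csf2rb, the shared beta chain of the receptors for IL-3, IL-5 and GM-CSF, had 38.8, 42.9 and 41.0 CPM at 4 h and 9.09, 11 and 10.3 CPM at 8 h (-2.02). Both fell about as much as Hmox1 did. Mylk2, a myosin light chain kinase, had 7.62, 8.01 and 8.75 CPM at 4 h and 2.08, 2.13 and 1.85 CPM at 8 h (-2.0), and Gpr35, a G protein-coupled receptor, had 6.49, 8.16 and 6.04 CPM at 4 h and 2.18, 1.84 and 1.30 CPM at 8 h (-1.95). Adjusted p ranged from 1.3e-17 for Sema7a to 6.1e-06 for Nppc among these genes.

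The largest increases were in genes of low level. Bmf at chr2:118528757-118549687 (ENSMUSG00000040093), a BH3-only protein that promotes apoptosis, had 3.73, 3.77 and 4.41 CPM at 4 h and 9.94, 11.5 and 10.6 CPM at 8 h. Its groups did not overlap, which the choice of genes required (log2 fold change 1.43 ± 0.14 (SE), adjusted p = 7.3e-09). Vsnl1 at chr12:11325242-11436613 (ENSMUSG00000054459), the calcium sensor visinin-like 1, had 2.63, 3.15 and 3.34 CPM at 4 h and 6.50, 7.85 and 8.25 CPM at 8 h, without overlap (log2 fold change 1.31 ± 0.13 (SE), adjusted p = 5.4e-09). Lrrn3, a leucine-rich repeat membrane protein, had the largest fold change, with 0.551, 0.371 and 0.668 CPM at 4 h and 1.61, 1.91 and 1.99 CPM at 8 h (log2 fold change 1.79 ± 0.28 (SE), adjusted p = 8.9e-06). The cadherin gene Cdh18 had 1.43, 2.13 and 2.70 CPM at 4 h and 4.77, 4.61 and 6.09 CPM at 8 h (log2 fold change 1.30), and Ranbp3l, related to the nuclear export factor RanBP3, had 1.82, 1.79 and 1.64 CPM at 4 h and 5.08, 3.5 and 3.66 CPM at 8 h (1.22). The 4 h libraries of Cdh18 were spread more widely than those of Ranbp3l. Nipal3 had 0.973, 1.42 and 1.13 CPM at 4 h and 2.53, 3.11 and 3.35 CPM at 8 h (1.34), and Ggn, known from germ cells, had 1.30, 1.30 and 0.968 CPM at 4 h and 2.84, 3.08 and 2.46 CPM at 8 h (1.23). Cyp7b1, which encodes an oxysterol hydroxylase, had 0.584, 0.340 and 0.401 CPM at 4 h and 1.23, 0.985 and 0.993 CPM at 8 h (1.27), and Elobl had 0.357, 0.742 and 0.868 CPM at 4 h and 1.26, 1.78 and 1.78 CPM at 8 h (1.29). Both were low even at 8 h, as were Sncaip (1.27), which binds alpha-synuclein, the glutamate transporter gene Slc1a6 (1.24) and Apol7b (1.24), with 1.33, 1.27 and 1.61 CPM, 1.29, 0.858 and 1.30 CPM and 1.07, 1.72 and 1.40 CPM at that time.

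**Figure D2:**
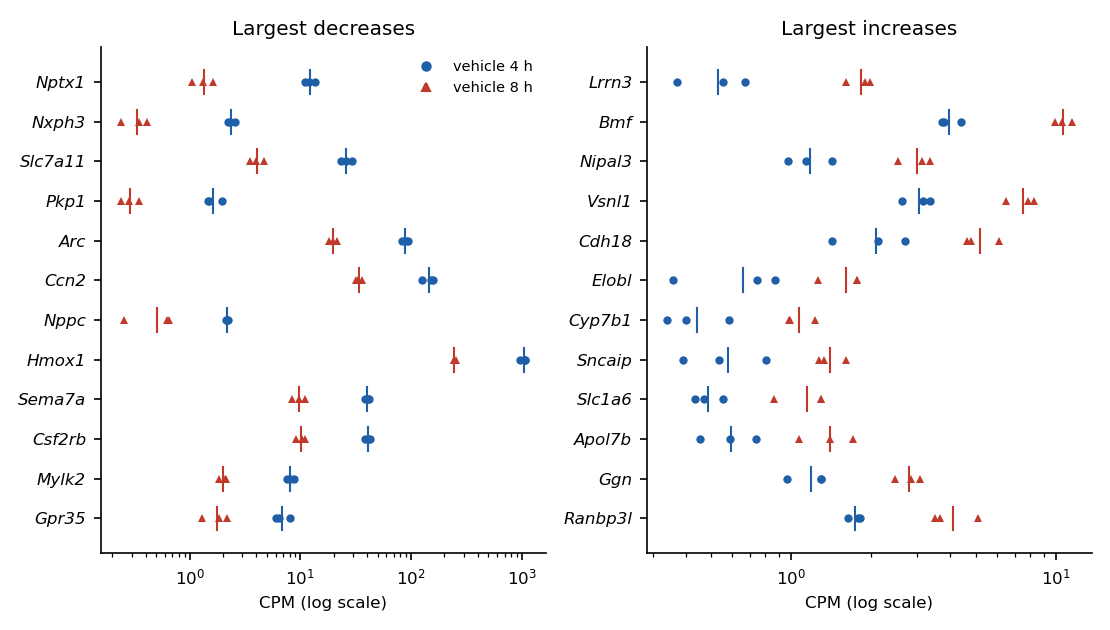
CPM on a log scale (x axis) of the 12 genes with the largest decrease and the 12 with the largest increase, with 1 point per library (circles 4 h, triangles 8 h) and a bar at each group mean. No gene has overlapping groups, since the choice of genes required this, and the decreases span a wider range of levels, up to Hmox1, than the increases.

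The rest of the transcriptome was described by 32 gene lists, with the tested members of each list called higher or lower read against the 21.2% and 21.7% of all genes and against the median of all genes, which was -0.00034. Since the lists were chosen with earlier results of these data known, their counts are descriptions and no test was run on a list. Apart from the clock genes, most members shown by library were picked for large called changes. A lack of overlap between their groups is therefore a description, and the share of all genes without overlap was not counted.

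**Figure D3:**
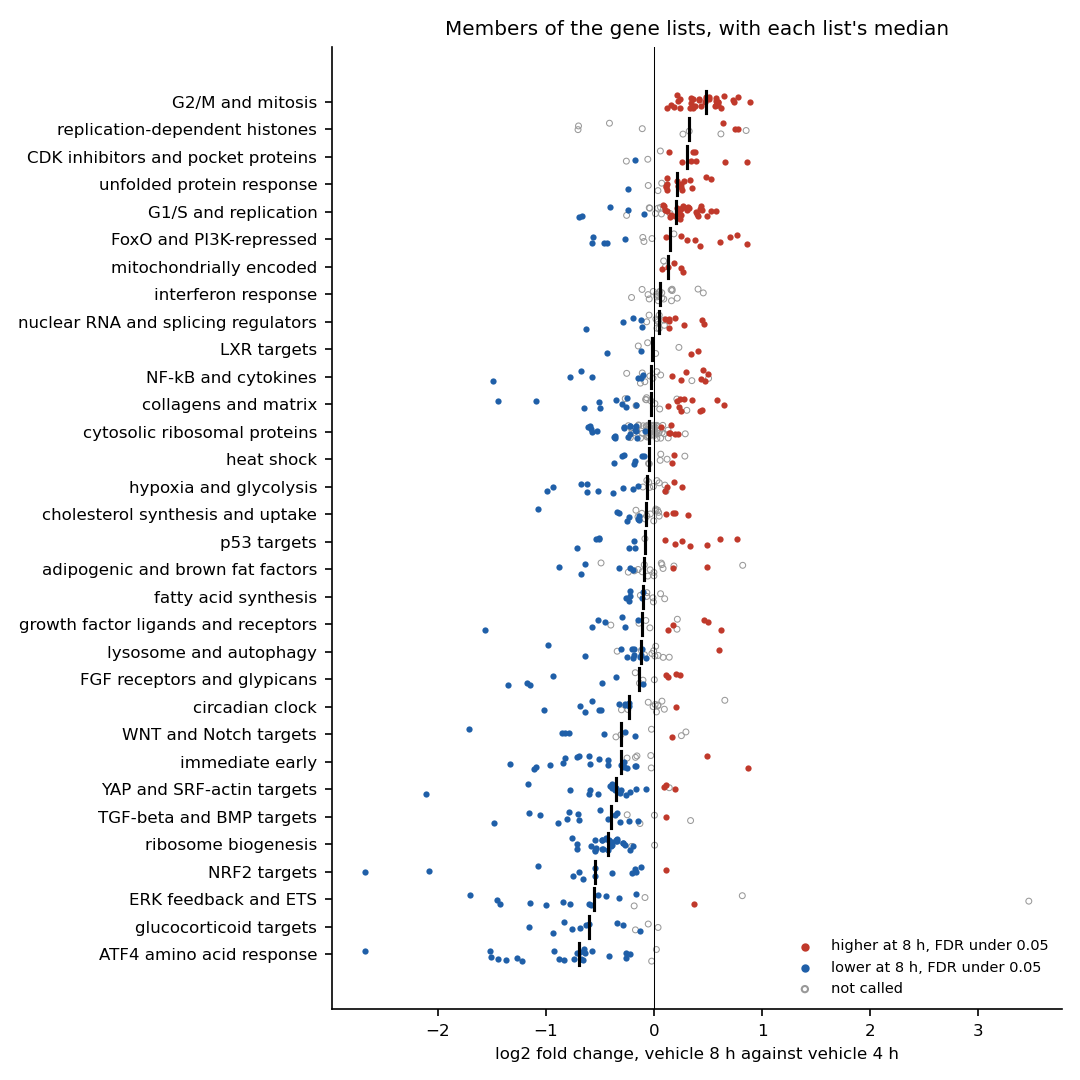
Log2 fold change of each tested member (x axis, vehicle 8 h against 4 h) for the 32 lists, ordered by median (black bar), with filled points for members that passed an FDR of 0.05. The list of mitosis genes lies wholly above 0 and that of the ATF4 amino acid response almost wholly below, and the single point at the far right is Phlda2, which was not called and had 0 counts at 4 h.

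Immediate early genes were mostly lower at 8 h. Of 27 tested members, 20 fell and 2 rose, with a median log2 fold change of -0.31. Egr2, a zinc finger transcription factor, had 9.18, 12.1 and 8.35 CPM at 4 h and 3.76, 3.91 and 4.18 CPM at 8 h (log2 fold change -1.33 ± 0.11 (SE), adjusted p = 1.6e-10). Fosl1, which encodes the AP-1 subunit FRA1, had 124, 111 and 113 CPM at 4 h and 62.9, 52.3 and 45.5 CPM at 8 h (log2 fold change -1.11 ± 0.082 (SE), adjusted p = 4.1e-11). The small Maf factor gene Maff had 29.9, 27.9 and 26.8 CPM at 4 h and 13.5, 13.3 and 12.9 CPM at 8 h (log2 fold change -1.09 ± 0.072 (SE), adjusted p = 6.6e-12), and Egr3 had 1.69, 2.01 and 1.74 CPM at 4 h and 1.10, 0.985 and 0.685 CPM at 8 h (log2 fold change -0.96 ± 0.18 (SE), adjusted p = 1.1e-04). In all 4 genes the 8 h libraries were below the 4 h libraries. Decreases extended to Ier2 (-0.84), the orphan nuclear receptor genes Nr4a3 (-0.82), Nr4a1 (-0.59) and Nr4a2 (-0.42), Klf4 (-0.71), Myc (-0.69), Srf (-0.60), Egr1 (-0.31) and Jun (-0.29). The exceptions were Fosb, with 0.454, 1.11 and 0.701 CPM at 4 h and 1.23, 1.49 and 1.47 CPM at 8 h (log2 fold change 0.87 ± 0.24 (SE), adjusted p = 0.0044), and the antiproliferative gene Btg2 (0.49), which rose. Fos itself had 2.53, 2.10 and 1.10 CPM at 4 h and 1.93, 1.68 and 2.05 CPM at 8 h, values that overlap, and did not pass the test (-0.024, adjusted p = 0.95). Its level was low at both times.

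Feedback inhibitors and targets of ERK signaling fell with them. Of 18 tested members, 13 fell and 1 rose, with a median of -0.55. The ERK phosphatase gene Dusp4 had 11.3, 11 and 11 CPM at 4 h and 4.2, 3.53 and 4.45 CPM at 8 h (log2 fold change -1.45 ± 0.10 (SE), adjusted p = 1.6e-11), and Dusp5 had 44.1, 47.2 and 47.3 CPM at 4 h and 19.2, 21.2 and 22.2 CPM at 8 h (log2 fold change -1.15 ± 0.054 (SE), adjusted p = 1.3e-14). Dusp6, the cytoplasmic ERK phosphatase, fell by a similar amount (-1.0). The ETS factor genes Etv4, with 5.12, 4.36 and 4.27 CPM at 4 h and 1.70, 1.53 and 1.92 CPM at 8 h (log2 fold change -1.42 ± 0.14 (SE), adjusted p = 5.3e-09), and Etv5 (-0.84) also fell, as did the EGF receptor ligands Hbegf (-0.77) and Ereg (-0.58) and the receptor inhibitor Errfi1 (-0.60). Areg, another ligand of the EGF receptor, had 0.519, 0.340 and 0.334 CPM at 4 h and 0.126, 0.0636 and 0.171 CPM at 8 h, so its level at 8 h was near the floor (log2 fold change -1.70 ± 0.40 (SE), adjusted p = 0.0011). Of the Sprouty genes, Spry4 fell (-0.45), while Spry1 (-0.18) and Spry2 (-0.082) were not called. Spred3 rose (0.37).

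Targets of YAP, TEAD and SRF, which encode matricellular and actin-associated proteins, were lower at 8 h in 17 of 21 tested members and higher in 3, with a median of -0.35. Ccn2 has been given above. Ccn1 at chr3:145646976-145649981 (ENSMUSG00000028195), its relative, had 267, 318 and 285 CPM at 4 h and 137, 123 and 127 CPM at 8 h (log2 fold change -1.17 ± 0.074 (SE), adjusted p = 3.1e-12), and Vcl at chr14:20929398-21033676 (ENSMUSG00000021823), the focal adhesion protein vinculin, had 368, 398 and 379 CPM at 4 h and 223, 225 and 219.7 CPM at 8 h (log2 fold change -0.78 ± 0.033 (SE), adjusted p = 2.0e-15). The groups of neither gene overlapped. Smaller decreases were measured for the LIM protein gene Ajuba (-0.60), Myh9 (-0.52), Flna (-0.39), Amotl2 (-0.39), Ankrd1 (-0.36), Actb (-0.35) and Tpm1 (-0.31). The 3 members that rose were Acta2 (0.11), Tpm2 (0.098) and Myl9 (0.19). Other smooth muscle genes of the list, Tagln, Cnn1 and Actg2, were not called higher. Without the 4 h library numbered 1 the list had 0 members higher, and without the 8 h library numbered 2 it had 1. Actg1 had 7.78, 7.17 and 7.18 CPM at 4 h and 5.52, 4.61 and 4.48 CPM at 8 h (log2 fold change -0.60 ± 0.12 (SE), adjusted p = 3.1e-04). This is low for a cytoplasmic actin beside Actb, at 2322, 2421 and 2443 CPM at 4 h, and Actg1 has near-identical pseudogene copies, so its value is uncertain.

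TEAD factors bind the letters GGAATG. This motif was searched on both strands from 250 bases before to 50 bases after the start of each gene's first listed RefSeq promoter (GRCm38.p6), and it occurred in 11 of the 17 members with a promoter (64.7%), against 14.6% of all 27025 promoters and 12% of the 10683 promoters of tested genes. The 150 bases before the start are shown for the pair of named members that hold the motif there, because both fell and both carry it in this window; capitals mark the motif on either strand. Ccn1 is read from chr3:145649986-145650135 (minus strand) and Vcl from chr14:20929248-20929397 (plus strand).
Ccn1: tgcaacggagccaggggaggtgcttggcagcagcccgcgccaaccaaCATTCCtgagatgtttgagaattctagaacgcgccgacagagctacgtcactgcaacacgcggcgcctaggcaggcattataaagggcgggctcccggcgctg
Vcl: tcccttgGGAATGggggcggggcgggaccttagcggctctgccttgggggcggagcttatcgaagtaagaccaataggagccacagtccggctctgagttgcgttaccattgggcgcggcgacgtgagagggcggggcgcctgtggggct
A match of letters is a description of the window and not a bound site.

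Targets of TGF-beta and BMP signaling gave a like count, with 15 of 20 tested members lower, 1 higher and a median of -0.39. Pmepa1, a feedback inhibitor of TGF-beta signaling, had 126, 121 and 112 CPM at 4 h and 55.7, 53.9 and 52.3 CPM at 8 h (log2 fold change -1.15 ± 0.049 (SE), adjusted p = 2.2e-15). The BMP target Id1 had 154, 156 and 156 CPM at 4 h and 80.4, 72.3 and 71.0 CPM at 8 h (log2 fold change -1.06 ± 0.053 (SE), adjusted p = 4.7e-14). In both genes no 8 h library reached a 4 h library. The inhibitory SMAD genes Smad7 (-0.88) and Smad6 (-0.80) fell, and so did the ligand genes Inhba (-0.78), Tgfb1 (-0.70) and Tgfb3 (-0.36), the BMP antagonist Grem1 (-0.50), Id2 (-0.43) and Id3 (-0.34). Tgfbi rose (0.11), and Id4 (-0.25), Tgfb2 (-0.13), Bambi (0.0047) and Bmp4 (0.34) were not called.

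Of 13 tested targets and components of WNT and Notch signaling, 7 fell and 1 rose (median -0.30). Lef1, a transcription factor of the WNT pathway, had 3.76, 3.28 and 2.54 CPM at 4 h and 0.789, 1.24 and 0.890 CPM at 8 h (log2 fold change -1.71 ± 0.18 (SE), adjusted p = 1.7e-08), and its partner gene Tcf7 had 9.53, 9.49 and 9.55 CPM at 4 h and 5.65, 5.63 and 5.27 CPM at 8 h (log2 fold change -0.79 ± 0.088 (SE), adjusted p = 6.4e-08). Hes1, the main Notch target, had 16.1, 15.9 and 15.4 CPM at 4 h and 9.50, 8.17 and 9.14 CPM at 8 h (log2 fold change -0.82 ± 0.087 (SE), adjusted p = 2.6e-08). All 3 fell without overlap, as did Nkd2 (-0.85), while Notch3 was the member that rose (0.16). Jag1 (-0.023) and Dll1 (0.30), which encode Notch ligands, were not called. A further 6 of the 19 members, namely Axin2, Lgr5, Sp5, Hey1, Heyl and Nrarp, had too few counts to be tested. The list is therefore not read as a measure of either pathway.

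Genes of the amino acid response made the list with the lowest median. ATF4 is a transcription factor made when uncharged tRNA or other stresses slow translation, and its targets import and make amino acids. Of 24 tested members, 22 fell, with a median of -0.69. The large neutral amino acid transporter gene Slc7a5 had 305, 306 and 311 CPM at 4 h and 118, 107 and 99.7 CPM at 8 h (log2 fold change -1.5 ± 0.052 (SE), adjusted p = 4.8e-17). Chac1 at chr2:119351229-119354381 (ENSMUSG00000027313), which encodes a glutathione-degrading enzyme, had 31.9, 31.9 and 30.6 CPM at 4 h and 13.3, 10.7 and 10.9 CPM at 8 h (log2 fold change -1.44 ± 0.093 (SE), adjusted p = 4.6e-12). Vldlr, a lipoprotein receptor gene, had 12.3, 11.8 and 14 CPM at 4 h and 4.48, 4.55 and 4.24 CPM at 8 h (log2 fold change -1.52 ± 0.12 (SE), adjusted p = 2.0e-10). Each of these was lower in every 8 h library. The cationic amino acid transporter gene Slc7a1 (-1.27), the pseudokinase gene Trib3 (-1.37), the aminotransferase gene Gpt2 (-1.22) and Mthfd2 (-0.92), a mitochondrial folate enzyme, had the next largest decreases. Asparagine synthetase (Asns, -0.83), the serine synthesis genes Psph (-0.66), Psat1 (-0.57) and Phgdh (-0.42), Shmt2 (-0.74) and Atf4 itself (-0.63) followed. Ddit3, which encodes CHOP, fell by the least of the called members (-0.22), and Pycr1 (-0.021) and Slc38a2 (0.023) were not called.

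The C/EBP-ATF element bound by ATF4 and its C/EBP partners has the letters TGATGNAA. It occurred in 6 of the 23 members with a promoter (26.1%), against 4.06% of all promoters and 2.3% of those of tested genes. The promoter of Slc7a11, the member with the largest decrease, is shown since it holds 2 of these motifs, which face each other (capitals). It is read from chr3:50443614-50443763 on the minus strand, as the 150 bases before the start.
Slc7a11: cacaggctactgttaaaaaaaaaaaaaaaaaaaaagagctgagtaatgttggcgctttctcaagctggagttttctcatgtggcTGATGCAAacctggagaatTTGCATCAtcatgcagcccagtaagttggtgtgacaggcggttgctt
Chac1 holds the motif farther out, with its first base 193 bases before the start.

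Targets of NRF2, the transcription factor of the oxidant response, were lower in 13 of 14 tested members and higher in 1 (median -0.55). Slc7a11 belongs to this list as well as to the ATF4 list, and Hmox1 has been given above. The sulfiredoxin gene Srxn1 had 239, 232 and 232 CPM at 4 h and 118, 109.8 and 108 CPM at 8 h (log2 fold change -1.07 ± 0.035 (SE), adjusted p = 2.3e-17), and Gclc, the catalytic subunit of the enzyme that limits glutathione synthesis, had 103, 114 and 114 CPM at 4 h and 68.2, 64.0 and 64.3 CPM at 8 h (log2 fold change -0.75 ± 0.041 (SE), adjusted p = 2.0e-13). Its other subunit gene Gclm fell (-0.55), as did thioredoxin reductase (Txnrd1, -0.69), Gsta4 (-0.65), Osgin1 (-0.54) and, by less, Nqo1 (-0.20). The pentose phosphate genes split, with Pgd (-0.38), G6pdx (-0.18) and Tkt (-0.12) lower and Taldo1 higher (0.12), though not without the 4 h library numbered 2 or the 8 h library numbered 1.

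Genes induced by glucocorticoids, some of which also respond to metals or growth factors, fell in 10 of 13 tested members (median -0.60, or -0.34 with no filter on low counts, where all 15 members were tested). The metallothionein genes Mt1 and Mt2, whose products bind zinc, were the most abundant. Mt2 had 686, 727 and 732 CPM at 4 h and 328, 328 and 306 CPM at 8 h (log2 fold change -1.16 ± 0.047 (SE), adjusted p = 1.2e-15), and Mt1 had 1158, 1089 and 1191 CPM at 4 h and 639, 663 and 635 CPM at 8 h (log2 fold change -0.83 ± 0.035 (SE), adjusted p = 1.7e-15). The kinase gene Sgk1 had 160.2, 159 and 159 CPM at 4 h and 89.8, 79.9 and 80.1 CPM at 8 h (log2 fold change -0.94 ± 0.041 (SE), adjusted p = 3.0e-15). All 3 genes had groups that did not overlap. Lcn2 (-0.69), Klf9 (-0.63), Rgcc (-0.76) and Tsc22d3 (-0.34) fell, and so did the receptor gene Nr3c1 (-0.28). Fkbp5, which is a defining glucocorticoid target, fell by less (-0.12), and Per1 (-0.052), Dusp1 (-0.17) and Glul (0.038) were not called.

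Genes of ribosome assembly fell by small amounts, with few exceptions. Of 30 tested members, 28 fell, with a median of -0.42. Rrp12 at chr19:41862851-41896173 (ENSMUSG00000035049), a factor of ribosomal subunit export, had 86.1, 84.3 and 79.0 CPM at 4 h and 51.5, 49.1 and 47.2 CPM at 8 h (log2 fold change -0.75 ± 0.042 (SE), adjusted p = 2.9e-13). Ppan, a large-subunit assembly factor, had 87.8, 94.5 and 92.2 CPM at 4 h and 56.9, 56.2 and 54.0 CPM at 8 h (log2 fold change -0.72 ± 0.042 (SE), adjusted p = 5.8e-13). Rrp9, a component of the U3 snoRNP, had 67.8, 71.6 and 71.8 CPM at 4 h and 45.4, 42.8 and 40.6 CPM at 8 h (log2 fold change -0.71 ± 0.057 (SE), adjusted p = 2.2e-10), and Heatr1 had 123, 127 and 118 CPM at 4 h and 85.4, 79.1 and 81.5 CPM at 8 h (log2 fold change -0.58 ± 0.037 (SE), adjusted p = 2.7e-12). The 3 libraries of each time lay within a narrow band in all 4 genes. Subunits of RNA polymerase I fell, among them Polr1b (-0.55) and Polr1a (-0.47), as did the nucleolar proteins Nop2 (-0.54), Nop56 (-0.54) and nucleolin (Ncl, -0.29). Fbl, which encodes fibrillarin, had 13.7, 14.2 and 15.9 CPM at 4 h and 13.1, 12.9 and 11.9 CPM at 8 h and was not called (-0.21), nor was Npm1 (0.0063). The E-box letters CACGTG, bound by MYC among others, occurred in 6 of 26 members with a promoter (23.1%), against 7.24% of all promoters and 10.2% of those of tested genes.

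Genes of the ribosomal proteins themselves moved less. Among 80 tested members, 19 fell and 6 rose, shares of 23.8% and 7.5%, of which the first is close to that of all genes. Without the 4 h library numbered 3, 11 fell, and without the 4 h library numbered 1 or 2, 3 rose. Rpl10a (-0.59), Rpl12 (-0.61), Rps6 (-0.58) and Rpl19 (-0.58) fell most, and the call of Rpl19 was lost without the 4 h library numbered 2 or 3 or the 8 h library numbered 2 or 3 (adjusted p of 0.053 to 0.13 in edgeR). Rpl19 had 1.46, 1.70 and 2.04 CPM at 4 h and 1.23, 1.11 and 1.13 CPM at 8 h and Rps6 had 6.52, 7.26 and 6.94 CPM at 4 h and 4.10, 4.99 and 4.79 CPM at 8 h, which is far below Rps3 at 602, 614 and 644 CPM at 4 h. Ribosomal protein genes have many processed pseudogene copies, so reads of these genes may have been left uncounted and their values are uncertain. Abundant members such as Rpl8 (-0.035), Rps3 (0.024) and Rps15 (-0.018) were not called, and Rpl4 rose slightly (0.066).

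Clock genes were lower at 8 h in the arm of the clock that CLOCK and BMAL1 drive. Of 23 tested members, 11 fell and 1 rose, with a median of -0.23. The share that fell, 47.8%, compares with 21.7% of all genes. Per2 at chr1:91415982-91459324 (ENSMUSG00000055866), a repressor of CLOCK and BMAL1, had 15.1, 15.1 and 15.2 CPM at 4 h and 7.80, 7.82 and 6.81 CPM at 8 h. Its 4 h libraries were almost equal and its level fell 2.02-fold (log2 fold change -1.02 ± 0.10 (SE), adjusted p = 9.8e-09). Per3 had 21.4, 18.3 and 20.9 CPM at 4 h and 13.1, 12.6 and 15.0 CPM at 8 h (log2 fold change -0.57 ± 0.088 (SE), adjusted p = 7.7e-06), and Per1, the Period gene that is also induced by serum and glucocorticoids, had 30.8, 30.4 and 28.4 CPM at 4 h and 29.6, 30.5 and 26.2 CPM at 8 h, which overlap (log2 fold change -0.052 ± 0.059 (SE), adjusted p = 0.52). So Per2 and Per3 fell, and Per1 was not called. Cry1 had 47.8, 49.1 and 51.1 CPM at 4 h and 41.7, 39.1 and 37.6 CPM at 8 h (log2 fold change -0.32 ± 0.053 (SE), adjusted p = 1.7e-05), and Cry2 had 15.1, 16.2 and 13.6 CPM at 4 h and 12.9, 12.8 and 12.7 CPM at 8 h (log2 fold change -0.23 ± 0.08 (SE), adjusted p = 0.023). The call of Cry2 was lost without the 4 h library numbered 1 or 2 or the 8 h library numbered 2 or 3, with an adjusted p of 0.054 to 0.15 in edgeR.

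Ciart at chr3:95878503-95882251 (ENSMUSG00000038550), a further repressor, had 5.25, 4.79 and 5.17 CPM at 4 h and 2.84, 3.46 and 3.15 CPM at 8 h (log2 fold change -0.69 ± 0.12 (SE), adjusted p = 2.6e-05). Bhlhe40 and Bhlhe41, repressors that bind E-boxes, had 107, 102 and 107 CPM at 4 h and 70.3, 69.0 and 64.6 CPM at 8 h for Bhlhe40 (log2 fold change -0.63) and 17.7, 16.4 and 15.5 CPM at 4 h and 11.1, 11.9 and 12.3 CPM at 8 h for Bhlhe41 (-0.49). The groups of neither gene overlapped. The nuclear receptor genes Nr1d1 and Nr1d2, which encode REV-ERB alpha and beta and repress Arntl, fell as well. Nr1d1 had 13.1, 13.7 and 13.6 CPM at 4 h and 10.1, 9.25 and 9.0 CPM at 8 h (-0.51), and Nr1d2 had 23.2, 22.4 and 24.3 CPM at 4 h and 18.2, 19.7 and 20.3 CPM at 8 h (-0.26). Among the PAR bZIP output genes, Tef had 58.7, 62.4 and 61.3 CPM at 4 h and 47.4, 50.5 and 53.2 CPM at 8 h (-0.27), while Dbp, with 6.62, 5.22 and 6.54 CPM at 4 h and 5.33, 4.8 and 4.76 CPM at 8 h (-0.30, adjusted p = 0.056), and Hlf (-0.24) were not called. Dbp passed the test without the 4 h library numbered 2 (adjusted p = 0.017 in edgeR) or the 8 h library numbered 1 (0.049), and its exons overlap those of Sphk2 on the other strand. Nfil3, a repressor of the same output sites, was the single member that rose, with 50.6, 54.6 and 52.9 CPM at 4 h and 62.6, 61.1 and 58.4 CPM at 8 h (log2 fold change 0.20 ± 0.056 (SE), adjusted p = 0.0044).

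No gene of the positive arm passed the test. Arntl had 27.4, 28.5 and 27.9 CPM at 4 h and 31.7, 26.7 and 31.2 CPM at 8 h (0.096, adjusted p = 0.22), and Clock had 116, 119 and 111 CPM at 4 h and 119, 118 and 118 CPM at 8 h (0.036, adjusted p = 0.42). Npas2, a relative of Clock at low level, had 0.357, 0.649 and 0.701 CPM at 4 h and 1.17, 0.604 and 0.924 CPM at 8 h (0.66). The libraries of the 2 times overlap in all 3 genes, and Arntl passed only when the 8 h library numbered 2 was left out (log2 fold change 0.17, adjusted p = 0.026 in edgeR). The ROR genes Rora (0.074) and Rorb (0.038) were not called. Of the kinase genes that mark PER proteins for decay, Csnk1e fell (-0.23), and Csnk1d (-0.0076) was not called.

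At 24 h, given here as a description, the called genes stood at other levels than at 8 h. Per2 had 13.6, 13.0 and 11.9 CPM, Nr1d1 22.0, 19.6 and 21.5 CPM, Tef 138, 151 and 146 CPM and Ciart 7.64, 8.47 and 7.02 CPM. All of these were above their 8 h values, and for Nr1d1, Tef and Ciart also above the 4 h values. Dbp had 25.9, 24.5 and 23.9 CPM, and Arntl had 18.3, 16.2 and 16.1 CPM, below its level at 4 h and 8 h. With 3 times and no 0 h library, no period or phase was estimated.

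The E-box CACGTG occurred in 5 of 18 clock members with a promoter (27.8%), against 7.24% of all promoters and 10.2% of those of tested genes. Ciart is shown because it holds 3 copies within 150 bases (capitals), and it fell by the second largest amount in the list. The window is chr3:95882229-95882378 on the minus strand.
Ciart: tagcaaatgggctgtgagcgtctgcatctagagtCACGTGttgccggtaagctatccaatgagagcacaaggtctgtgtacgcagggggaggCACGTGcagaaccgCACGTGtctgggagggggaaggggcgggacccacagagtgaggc

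**Figure D4:**
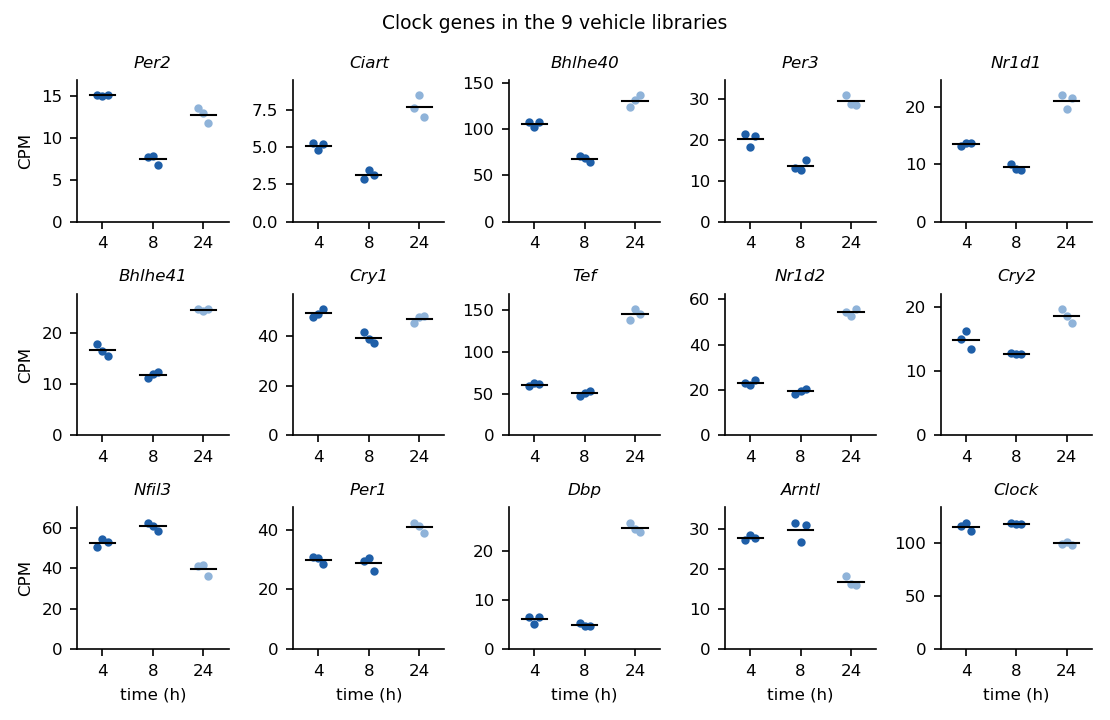
CPM (y axis, from 0) of 15 clock genes in the 9 vehicle libraries at 4, 8 and 24 h (x axis, not to scale), with a bar at each mean. Per2, Ciart, Bhlhe40, Per3 and Nr1d1 dip at 8 h, while Arntl and Clock are alike at 4 h and 8 h.

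Genes of mitosis were higher at 8 h without exception. All 36 of 36 tested members of the G2/M list rose, with changes from 0.12 to 0.89 and a median of 0.48. Nusap1, a microtubule-binding protein of the spindle, had 43.2, 43.9 and 46.8 CPM at 4 h and 78.7, 82.8 and 86.8 CPM at 8 h (log2 fold change 0.89 ± 0.05 (SE), adjusted p = 2.7e-13). Ccnb2 at chr9:70407692-70421547 (ENSMUSG00000032218), which encodes cyclin B2, had 53.7, 47.8 and 51.1 CPM at 4 h and 84.1, 89.5 and 87.8 CPM at 8 h (log2 fold change 0.78 ± 0.048 (SE), adjusted p = 2.1e-12). The kinetochore kinase gene Bub1 had 51.4, 53.4 and 57.1 CPM at 4 h and 89.2, 87.3 and 92.4 CPM at 8 h (log2 fold change 0.73 ± 0.041 (SE), adjusted p = 2.5e-13), and Cdca3, which promotes mitotic entry, had 95.4, 85.8 and 98.3 CPM at 4 h and 158, 154 and 156 CPM at 8 h (log2 fold change 0.74 ± 0.039 (SE), adjusted p = 7.4e-14). All 4 genes had their 8 h libraries above their 4 h libraries. The proliferation marker Mki67 (0.59), Top2a (0.58), Cdk1 (0.48), Ccna2 (0.47) and the kinetochore genes Ndc80 (0.58) and Nuf2 (0.65) rose by about the median or more. The smallest increases were in Ccnf (0.12), the kinase genes Aurka (0.16) and Plk1 (0.21), Psrc1 (0.18) and Cdc20 (0.22).

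The CHR element TTTGAA occurred in 23 of the 31 G2/M members with a promoter (74.2%), against 18.1% of all promoters and 11.7% of those of tested genes, and the CCAAT box (letters CCAAT) in 26 (83.9%), against 37.9% and 38.8%. Ccnb2 and Cdca3 are shown because the spaced CCAAT boxes typical of these promoters can be read in them (capitals, either strand). Ccnb2 holds 3 boxes in chr9:70421555-70421704 (minus strand), and Cdca3 holds 2 in chr6:124830026-124830175 (plus strand).
Ccnb2: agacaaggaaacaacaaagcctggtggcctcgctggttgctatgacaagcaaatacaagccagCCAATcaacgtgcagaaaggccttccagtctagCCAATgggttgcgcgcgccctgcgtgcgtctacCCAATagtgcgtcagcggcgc
Cdca3: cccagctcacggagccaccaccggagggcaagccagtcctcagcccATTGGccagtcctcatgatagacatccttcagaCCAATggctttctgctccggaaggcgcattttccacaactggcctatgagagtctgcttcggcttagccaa
In Ccnb2 the boxes begin 87, 54 and 21 bases before the start, at equal steps, and in Cdca3 104 and 71 bases before it.

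Genes of G1/S and DNA replication were higher in 27 of 40 tested members and lower in 5, with a median of 0.20. Thymidine kinase (Tk1) had 77.1, 75.8 and 76.0 CPM at 4 h and 114, 114 and 112 CPM at 8 h (log2 fold change 0.57 ± 0.036 (SE), adjusted p = 2.5e-12), and Clspn, which links replication forks to the checkpoint, had 65.1, 62.1 and 62.9 CPM at 4 h and 92.5, 93.1 and 87.6 CPM at 8 h (log2 fold change 0.52 ± 0.048 (SE), adjusted p = 2.7e-09). The ribonucleotide reductase gene Rrm1 (0.44), the origin firing genes Mcm10 (0.44) and Cdc45 (0.43), Lig1 (0.40) and the atypical E2F gene E2f8 (0.41) followed. Among the members that fell, Ccnd2 (cyclin D2) had 298, 311 and 312 CPM at 4 h and 183, 194 and 191 CPM at 8 h (log2 fold change -0.70 ± 0.036 (SE), adjusted p = 6.7e-14), and Ccnd1 (cyclin D1), which depends on growth factors, had 73.8, 69.3 and 65.8 CPM at 4 h and 46.5, 46.7 and 38.8 CPM at 8 h (log2 fold change -0.66 ± 0.069 (SE), adjusted p = 2.1e-08). These groups did not overlap. Ung (-0.40), Cdt1 (-0.24) and Mcm2 (-0.091) fell by less, and Pcna (0.014), E2f1 (-0.043) and Ccne1 (0.037) were not called. The E2F letters TTTGGCGC occurred in 7 of 32 members with a promoter (21.9%), against 0.537% of all promoters and 0.974% of those of tested genes, and TTTCCCGC in 5 (15.6%), against 1.11% and 2.05%. Of the 65 replication-dependent histone genes, a list taken by symbol, most had too few counts to be tested. The list is therefore not read as a measure of DNA replication. Of 11 tested, 3 rose, namely Hist1h2bc (0.75), Hist2h2be (0.64) and Hist1h1c with 19.8, 16.3 and 18.5 CPM at 4 h and 33.6, 29.2 and 30.6 CPM at 8 h (0.78), and the others were not called. The median was 0.33, and it ran from 0.0061 with no filter on low counts, where 53 members were tested, to 0.64 with at least 10 counts in every library, where 5 were. Without the 4 h library numbered 3, 16 were tested, 4 rose and 1 fell.

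Inhibitors of the cell cycle rose at the same time. Of 12 tested CDK inhibitors, pocket proteins and related cyclins, 8 were higher and 1 was lower (median 0.30). Ccng2, a cyclin that slows the cycle, had 16.3, 19.1 and 20.9 CPM at 4 h and 32.8, 33.2 and 36.0 CPM at 8 h (log2 fold change 0.86 ± 0.071 (SE), adjusted p = 4.3e-10). Rbl2, which encodes the DREAM pocket protein p130, had 35.1, 35.0 and 35.4 CPM at 4 h and 53.4, 56.1 and 56.9 CPM at 8 h (log2 fold change 0.66 ± 0.046 (SE), adjusted p = 1.7e-11). Cdkn1b, which encodes p27, had 109, 111 and 119.5 CPM at 4 h and 140.4, 146 and 154 CPM at 8 h (log2 fold change 0.38 ± 0.038 (SE), adjusted p = 1.6e-08), and Cdkn2d had 28.9, 29.4 and 29.6 CPM at 4 h and 38.8, 38.4 and 38.0 CPM at 8 h (0.39). Each rose without overlap. Cdkn1a, which encodes p21, fell (-0.18), and Cdkn2a, at 745, 770.3 and 781 CPM at 4 h, was not called (-0.056).

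Targets of FoxO factors, which are active when growth-factor signaling through PI3K is low, were higher in 9 and lower in 5 of 18 tested members (median 0.15). Besides Ccng2 and Cdkn1b, those that rose were the thioredoxin inhibitor Txnip, with 67.6, 75.6 and 78.1 CPM at 4 h and 114, 129 and 135 CPM at 8 h (log2 fold change 0.77 ± 0.068 (SE), adjusted p = 1.3e-09), Sesn3 (0.70), Sesn1 (0.61), the BH3-only gene Bcl2l11 (0.43), Pik3ip1 (0.31), Insr (0.25) and Foxo3 (0.11). Foxo1 (-0.56), Trib1 (-0.46), Trib2 (-0.57), Gadd45a (-0.43) and Irs2 (-0.27) fell. Targets of p53, which the SV40 T antigen binds, were split evenly, with 7 higher and 7 lower of 15 (median -0.083). Trp53inp1 (0.77) and Sesn1 rose, and Sesn2 (-0.71) and Gdf15 (-0.54), which also respond to ATF4, fell.

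Genes of protein folding in the endoplasmic reticulum rose slightly, in 15 of 19 tested members, and 1 fell (median 0.21). Without the 4 h library numbered 2, 11 rose, and without the 8 h library numbered 1, 11 rose and 2 fell. With the GC and length offset, 12 rose. Sdf2l1 had 44.4, 41.3 and 43.8 CPM at 4 h and 65.7, 60.6 and 60.8 CPM at 8 h (log2 fold change 0.53 ± 0.061 (SE), adjusted p = 1.1e-07), Dnajb9, a co-chaperone of the IRE1 branch, had 12.1, 13.6 and 14.2 CPM at 4 h and 19.0, 17.8 and 19.0 CPM at 8 h (log2 fold change 0.48 ± 0.077 (SE), adjusted p = 1.3e-05), and calreticulin (Calr) had 1669, 1582 and 1608 CPM at 4 h and 2181, 2006 and 2032 CPM at 8 h (log2 fold change 0.36 ± 0.041 (SE), adjusted p = 9.4e-08). Pdia4 (0.33) rose too. Hspa5, the main chaperone, rose by 0.12, and Herpud1 fell (-0.24). Genes of the heat shock list did not rise with them, with 2 higher and 7 lower of 15 (median -0.049). Hspa4 (-0.29) and Bag3 (-0.27) were lower, and Hspe1 was higher (0.18). Hspb1 was lower at a level near 3 CPM (-0.37, adjusted p = 0.046 and not called after leaving out each library in turn). Hspa1a (0.29) and Hspa1b (0.058), which encode the inducible HSP70, were not called, and these are near-identical copies.

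Matrix genes moved in both directions, with 11 higher and 10 lower of 31 (median -0.026). Col1a1 at chr11:94936224-94953042 (ENSMUSG00000001506) had 2382, 2251 and 2079 CPM at 4 h and 3618, 3607 and 3318 CPM at 8 h (log2 fold change 0.65 ± 0.051 (SE), adjusted p = 1.2e-10), Col1a2 rose by 0.59 and Col3a1 by 0.44. The collagen cross-linking enzyme gene Lox had 3017, 3038 and 3021 CPM at 4 h and 3824, 3844 and 3900.4 CPM at 8 h (log2 fold change 0.35 ± 0.037 (SE), adjusted p = 2.3e-08), and Sparc rose (0.43). The basement membrane collagen genes Col4a1 (-0.35) and Col4a2 (-0.29) fell. Timp3, an inhibitor of metalloproteinases, had 1217, 1247 and 1241 CPM at 4 h and 457, 458 and 454 CPM at 8 h (log2 fold change -1.44 ± 0.03 (SE), adjusted p = 2.7e-21), the largest decrease of the list. The hyaluronan synthase Has1 fell from a low level, with 3.53, 3.62 and 2.84 CPM at 4 h and 1.70, 1.84 and 1.13 CPM at 8 h (-1.09), while Has2 rose (0.28). Thbs1 (-0.64), Tnc (-0.50) and Mmp2 (-0.51) fell, and Fn1 (-0.07) was not called. Exons of Timp3 overlap annotated exons of Syn3 on the other strand.

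Of 23 tested adipogenic and brown fat genes, 6 fell and 2 rose (median -0.089). The share that fell, 26.1%, was near that of all genes, and the share that rose, 8.7%, was below it. Cebpb, an early factor of adipogenesis and also an ATF4 target, had 173, 151 and 142 CPM at 4 h and 84.8, 80.4 and 89.7 CPM at 8 h (log2 fold change -0.87 ± 0.12 (SE), adjusted p = 1.5e-06). Prdm16, a determinant of brown fat identity, had 13.6, 14.8 and 13.4 CPM at 4 h and 7.80, 9.09 and 9.35 CPM at 8 h (log2 fold change -0.68 ± 0.08 (SE), adjusted p = 1.5e-07), and the lipid droplet gene Plin2 had 171, 175 and 178 CPM at 4 h and 116, 113 and 108 CPM at 8 h (log2 fold change -0.63 ± 0.039 (SE), adjusted p = 1.5e-12). Cebpa (-0.33) and Pparg (-0.20) fell by less. Zfp521, which restrains adipogenesis, rose, with 37.3, 39.0 and 39.4 CPM at 4 h and 50.6, 56.5 and 55.6 CPM at 8 h (log2 fold change 0.49 ± 0.049 (SE), adjusted p = 8.7e-09), and so did Ebf3 (0.17). Ebf2 (0.085), Ppargc1a (0.068) and Fabp4 (-0.089) were not called, and Ucp1 had 0 counts in all 6 libraries.

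FGF receptors and coreceptors were measured in the same vehicle cells. Fgfr1, the most abundant FGF receptor gene here on the CPM scale, had 398, 412 and 394 CPM at 4 h and 208, 216 and 206 CPM at 8 h (log2 fold change -0.93 ± 0.037 (SE), adjusted p = 5.5e-16). Syndecan 1 (Sdc1), a heparan sulfate coreceptor, had 734, 721 and 719 CPM at 4 h and 345, 333 and 305 CPM at 8 h (log2 fold change -1.15 ± 0.038 (SE), adjusted p = 2.6e-17). The growth factor gene Fgf2 had 5.03, 4.2 and 4.11 CPM at 4 h and 1.80, 2.03 and 1.37 CPM at 8 h (log2 fold change -1.35 ± 0.14 (SE), adjusted p = 1.5e-08), and its exons overlap those of Nudt6 on the other strand. All 3 fell without overlap. Sdc4 (-0.48), Gpc1 (-0.35), Fgf7 (-0.10) and Fgf21 (-1.18), which lay near the floor at 8 h with 0.379, 0.222 and 0.274 CPM, also fell. The call of Fgf21 was lost without any of the 5 libraries other than the 8 h library numbered 1 (adjusted p of 0.050 to 0.13 in edgeR), and without the 8 h library numbered 2 or 3 the list had 7 calls. The increases in the list were less stable than the decreases, as 1 member rose without the 4 h library numbered 1 or the 8 h library numbered 2 or with the GC and length offset, and 2 without the 8 h library numbered 3. Fgf10 (0.20), Fgfrl1 (0.24), Gpc6 (0.13) and Sdc2 (0.11) rose, giving 4 higher and 7 lower of 15 (median -0.13). Fgfr2 (-0.13) and Fgfr3 (-0.17) were not called.

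Among other growth factors and receptors, 5 of 18 rose and 7 fell (median -0.11), and 3 rose without the 4 h library numbered 3 or the 8 h library numbered 2. The PDGF ligand genes Pdgfa, with 49.2, 47.0 and 47.3 CPM at 4 h and 34.1, 32.6 and 33.9 CPM at 8 h (log2 fold change -0.51 ± 0.043 (SE), adjusted p = 4.8e-10), and Pdgfb (-1.56) fell, and the receptor gene Pdgfra rose (0.46). Kitl, the ligand of KIT, had 60.6, 59.8 and 61.2 CPM at 4 h and 87.5, 96.1 and 95.4 CPM at 8 h (log2 fold change 0.62 ± 0.058 (SE), adjusted p = 3.8e-09) and Hgf rose (0.50), while its receptor gene Met fell (-0.45). Csf1 had 1156, 1202 and 1175 CPM at 4 h and 778, 810.3 and 794 CPM at 8 h (log2 fold change -0.57 ± 0.032 (SE), adjusted p = 3.0e-13). The NF-kB and cytokine list was balanced, with 7 higher and 7 lower of 24 (median -0.023). Il33, with 1.98, 2.75 and 2.27 CPM at 4 h and 0.852, 0.795 and 0.856 CPM at 8 h (-1.48), its receptor gene Il1rl1, with 1204, 1240.4 and 1256 CPM at 4 h and 793, 684 and 679.8 CPM at 8 h (-0.78), and Lif (-0.68) fell. Cxcl5 (0.50), Birc3 (0.47), Vcam1 (0.45) and Ptx3 (0.44) rose, and Nfkbia (-0.037) and Tnfaip3 (0.028), which are direct feedback targets, were not called.

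Interferon response genes gave a contrast to these lists. None of 21 tested members was called in either direction, with a median of 0.053 and a range from -0.21 to 0.46. In edgeR, 0 of the 21 passed an unadjusted p of 0.05, and limma with voom and DESeq2 each called 0, but 9 were called when no filter on low counts was used, 3 at an FDR of 0.25, 4 without the 8 h library numbered 1 and 1 without the 4 h library numbered 1. Ifit1 had 295, 544 and 548 CPM at 4 h and 342, 546 and 571 CPM at 8 h (adjusted p = 0.79) and Rsad2 had 22.4, 49.9 and 49.4 CPM at 4 h and 36.0, 61.2 and 70.1 CPM at 8 h (adjusted p = 0.11). In both genes the library numbered 1 was the lowest at either time, the same libraries that the second principal component set apart.

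Genes of lipid synthesis changed little. Of 24 genes of cholesterol synthesis and uptake, 8 fell and 4 rose (median -0.074), and 2 rose without the 4 h library numbered 2 or the 8 h library numbered 1. Idi1 (-0.35) fell, Fdps (0.31) and Hmgcs1 (0.20) rose, and Sqle (0.017) was not called. In fatty acid synthesis, 6 of 13 fell (median -0.099), with Scd1 (-0.26), Acly (-0.23), Elovl5 (-0.22) and Fasn (-0.22) lower by similar small amounts. Among 8 LXR targets, Mylip (0.41) and Abcg1 (0.34) rose, and Apoe (-0.44) and the receptor gene Nr1h2 (-0.12) fell, the latter not without the 4 h library numbered 1 or 3 or the 8 h library numbered 1 or 3 (adjusted p of 0.067 to 0.13 in edgeR, median -0.021).

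Hypoxia and glycolysis genes were lower in 10 and higher in 4 of 23 tested members (median -0.065). Hk2, hexokinase 2, had 65.9, 66.0 and 66.8 CPM at 4 h and 35.5, 33 and 31.8 CPM at 8 h (log2 fold change -0.99 ± 0.04 (SE), adjusted p = 9.7e-16), and the glucose transporter gene Slc2a1 had 204, 203 and 213 CPM at 4 h and 137, 129 and 123 CPM at 8 h (log2 fold change -0.67 ± 0.038 (SE), adjusted p = 2.9e-13). Vegfa had 434, 442 and 441 CPM at 4 h and 240.0, 225 and 224 CPM at 8 h (log2 fold change -0.94 ± 0.04 (SE), adjusted p = 2.6e-15), and the oxygen sensor gene Egln3 fell (-0.62). Of the later glycolytic genes in the list, Pgk1 (0.26), Ldha (0.19) and Eno1 (0.11) rose, Pgam1 fell (-0.19) and Aldoa was not called (0.028). Without the 4 h library numbered 1, 2 members of the list rose. The hypoxia genes Car9 (0.10), Bnip3 (0.049) and Adm (-0.0053) were not called.

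Lysosome and autophagy genes fell in 12 of 23 and rose in 1 (median -0.12). The selective autophagy receptor gene Sqstm1 had 587, 592 and 601 CPM at 4 h and 389, 379.6 and 376 CPM at 8 h (log2 fold change -0.64 ± 0.032 (SE), adjusted p = 5.0e-14), the GTPase gene Rragd fell (-0.98), and Wipi1 was the member that rose, with 45.9, 37.7 and 41.3 CPM at 4 h and 64.3, 62.7 and 63.1 CPM at 8 h (log2 fold change 0.61 ± 0.05 (SE), adjusted p = 3.6e-10). The cathepsin gene Ctsd fell slightly (-0.19), and so did the sialidase gene Neu1 (-0.30). Among 23 nuclear RNAs and splicing regulators, 8 rose and 5 fell (median 0.048), and 4 rose with the GC and length offset. The splicing factor genes Tra2a (0.45) and Tra2b (0.47) and the cold-inducible Cirbp (0.27) rose, Srsf2 (-0.28) and the noncoding RNA Neat1 fell, the latter with 387, 386 and 373 CPM at 4 h and 254, 244 and 243 CPM at 8 h (-0.63), and Malat1 was not called (0.019).

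Of the 7 mitochondrially encoded genes tested, 5 rose (median 0.13), by 0.27 in mt-Nd2 and 0.25 in mt-Nd1, both subunits of complex I. The other members that rose were mt-Cytb (0.18), mt-Nd4 (0.13) and mt-Co1 (0.077). With the GC and length offset, 2 of the 7 passed, and 3 passed without the 4 h library numbered 1 or 2 or the 8 h library numbered 2 or 3. The other 6 members, among them mt-Co2, mt-Co3 and mt-Atp6, had too few counts to be tested. The reason was not tested, and this is not read as low expression.

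The same step in time was then compared with that of FGF6-treated cells, which share no library with the vehicle cells. The difference between the FGF6 and the vehicle change from 4 h to 8 h passed an FDR of 0.05 for 4615 of 15071 genes (30.6%). Among the 371 genes that rose by at least 1.5-fold in vehicle cells, the difference was called in 134 (36.1%), and in 113 of these the change with FGF6 was smaller or opposite. Among the 682 that fell by at least 1.5-fold it was called in 331 (48.5%), and in 251 of these the change was smaller or opposite with FGF6. These genes were chosen by their vehicle change, which enters the difference, so a smaller change with FGF6 is the more likely direction and the shares are a description. The sign of the change was the same with FGF6 in 279 of the 371 and in 586 of the 682.

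Ribosome assembly genes had the largest share of members with a called difference among the 32 lists. The difference was called in 29 of 30 members, each time with a higher change with FGF6. The median change was -0.014 with FGF6 against -0.42 with vehicle. Rrp12 had 131, 134 and 135 CPM at 4 h and 124, 123 and 121 CPM at 8 h with FGF6, against 86.1, 84.3 and 79.0 CPM and 51.5, 49.1 and 47.2 CPM with vehicle (difference 0.63 ± 0.058 SE on the log2 scale, adjusted p = 9.2e-09). Replication genes rose more with FGF6, where 27 of 40 had a higher change (median 0.41). Ccnd1 fell with vehicle (-0.66) and changed by 0.37 with FGF6, from 303, 318 and 304 CPM to 393, 402 and 399.9 CPM (difference 1.03 ± 0.093, adjusted p = 6.3e-09). Mitosis genes differed in 10 of 36, 5 in each direction, with medians of 0.54 and 0.48.

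Members of the cell cycle inhibitor list differed in the other direction, as 9 of 12 had a lower change with FGF6. Cdkn1b had 67.5, 62.8 and 64.6 CPM at 4 h and 64.9, 63.6 and 65.9 CPM at 8 h with FGF6, below its vehicle values (difference -0.38, adjusted p = 1.3e-05). The amino acid response fell in both, with medians of -0.71 with FGF6 and -0.69 with vehicle, and 13 of 24 members differed. Hmox1 fell in both, from 989, 1076 and 982 CPM to 233, 213 and 223 CPM with FGF6 (difference -0.11 ± 0.062, adjusted p = 0.21). For the clock list the difference was called in 10 of 23, 8 of them with a lower change with FGF6. Per2 fell from 15.0, 12.5 and 12.7 CPM to 4.04, 2.39 and 3.41 CPM with FGF6 (difference -1.02 ± 0.16, adjusted p = 2.6e-05). Interferon genes, of which none was called with vehicle, had a median change of -1.09 with FGF6, and 19 of 21 differed.

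Of the called vehicle changes, those with the smallest adjusted p of the difference were in Aoc3, Lox, Tns1, Slc29a1 and Sema7a. Aoc3, an amine oxidase of the vessel and adipocyte surface, rose with vehicle, with 35.5, 35.0 and 36.2 CPM at 4 h and 49.1, 47.8 and 50.5 CPM at 8 h (log2 fold change 0.47 ± 0.052 (SE), adjusted p = 5.9e-08), and had 10.7, 11 and 10.9 CPM at 4 h and 2.34, 2.18 and 2.51 CPM at 8 h with FGF6 (difference -2.68 ± 0.11, adjusted p = 1.5e-14). Lox rose with vehicle and had 1721, 1801 and 1793 CPM and 1006, 941 and 916 CPM with FGF6 (difference -1.24 ± 0.052). These 2 genes moved in opposite directions in the 2 treatments. Tns1, the focal adhesion protein tensin 1, fell in both, with 167, 157 and 152 CPM at 4 h and 103, 108 and 95.6 CPM at 8 h with vehicle (log2 fold change -0.64) and 187, 192 and 190.3 CPM and 41.6, 41.9 and 43.8 CPM with FGF6 (difference -1.52 ± 0.062). Slc29a1, a nucleoside transporter, fell with vehicle, with 464, 465 and 479 CPM at 4 h and 392.3, 407 and 391 CPM at 8 h (-0.24), and had 699, 708 and 689.6 CPM and 1065, 1097 and 1056 CPM with FGF6 (difference 0.86 ± 0.04). Sema7a, among the largest decreases with vehicle, had 761, 770.5 and 764 CPM and 634, 646 and 631 CPM with FGF6 (difference 1.79 ± 0.082).

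**Figure D5:**
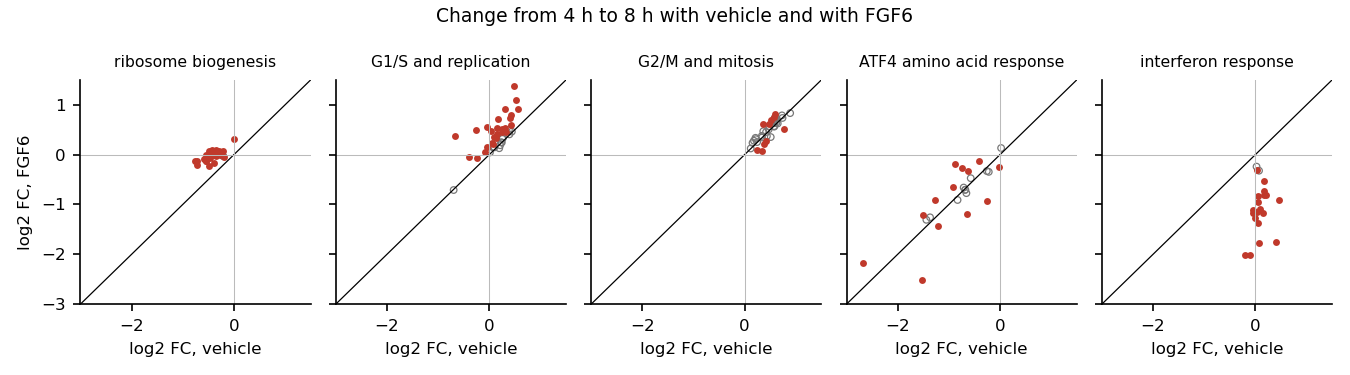
Log2 fold change from 4 h to 8 h with vehicle (x axis) and with FGF6 (y axis) for the tested members of 5 lists, with the line of equal change and filled points where the difference passed an FDR of 0.05. Ribosome assembly and replication genes lie above the line, mitosis genes along it, and interferon genes below it.

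At 24 h the vehicle cells, described here without a test, stood near their 8 h levels for some genes and away from them for others. Nptx1 had 0.490, 0.422 and 0.420 CPM, Csf2rb 2.91, 2.32 and 2.19 CPM, Slc7a11 4.27, 3.71 and 4.33 CPM, Hmox1 262, 259 and 264 CPM and Arc 23.1, 22.1 and 20.4 CPM. Nptx1 and Csf2rb were thus lower still, while Slc7a11, Hmox1 and Arc were close to their 8 h values. Bmf had 18.3, 22.9 and 20.7 CPM and Vsnl1 24.4, 26.7 and 26.2 CPM, above their 8 h values. Nusap1 had 81.7, 87.5 and 88.0 CPM and Ccnb2 109, 116 and 113 CPM, and Rrp12 had 43.2, 39.5 and 39.2 CPM. By contrast Plin2, at 175, 188 and 194 CPM, and Sqstm1, at 664, 699.6 and 676 CPM, stood again at or above their 4 h values.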

How the data were processed

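RNA of the immortalized brown preadipocytes was isolated with Direct-zol kits and sequenced on an Illumina HiSeq. The authors aligned reads to GRCm38 with STAR, counted them per GENCODE gene with featureCounts of the Subread package, and deposited 1 table of raw counts for 48023 genes in 18 libraries. Tool versions, the annotation release and the strand setting were not given in the sources used here. Symbols and positions came from GENCODE M21, which held 47224 of the gene identifiers (98.3%), and 19409 genes had no count in any library.

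Libraries were grouped by treatment and time from their titles. Total counts per library ran from 24327816 to 33471980, and the floor of 3 counts given for low genes covers counting error only. Genes that passed filterByExpr (15071) were scaled by TMM and fitted with edgeR 4.0.16 (R 4.3.3) as 6 group means over all 18 libraries, with no covariate. The contrast of vehicle cells at 8 h against 4 h, and its difference from the same contrast with FGF6, were tested by quasi-likelihood F tests with Benjamini-Hochberg adjustment and called at an FDR of 0.05. The study's own analysis used voom, limma and an FDR of 0.25, which were alternatives here. The SE of a log2 fold change is its size divided by the square root of F. For CPM, counts were divided by library size after TMM scaling. Levels in CPM are not divided by gene length.

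Named were the 12 largest increases and the 12 largest decreases among called genes without overlap between groups, with at least 1 CPM in the higher group and a proper symbol, every tested clock gene, up to 4 called members of each other list by size, and the 5 called genes with the smallest adjusted p of the difference from FGF6. Some genes that met this rule are not reported here. Other members of a list were named after their values were seen. The members, the gene lists and the motifs were chosen with earlier results of these data known. Alternatives were limma 3.58.1 with voom, DESeq2 1.42.0, other scalings and filters, fewer libraries in the fit, the replicate number as a block, other thresholds, and each library left out. The fit was tested on simulated data. Libraries of a group differed by more than sampling noise (chi-square per degree of freedom of 2.64 to 7.05), so none was counted as a duplicate.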

Additional observations from a re-analysis of the deposited data

Results flagged for a closer look

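The change from 4 h to 8 h differed between FGF6-treated and vehicle cells for 4615 of 15071 genes at an FDR of 0.05 (edgeR quasi-likelihood test of the interaction), among them 92 of the 163 genes named by rule. Most of the named genes were chosen by their vehicle change, which enters the difference, and some by the difference itself. Their share with a called difference is therefore a description and cannot be read against that of all genes. Values in parentheses are the log2 change with FGF6 minus the log2 change with vehicle, and no explanation of a difference was tested. Groups of 3 libraries were too small for a test of outlying libraries.

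Among the genes with the largest decreases, the difference was positive for Nptx1 (2.84), Gpr35 (1.92), Sema7a (1.79), Nxph3 (1.29), Ccn2 (0.72) and Slc7a11 (0.49) and negative for Arc (-0.58). The genes with the largest increases had a negative difference in Vsnl1 (-3.58), Sncaip (-3.39), Bmf (-2.56), Cyp7b1 (-1.75), Slc1a6 (-1.68) and Lrrn3 (-1.16). For the genes named for their difference it was above 0 in Slc29a1 (0.86) and below 0 in Aoc3 (-2.68), Tns1 (-1.52) and Lox (-1.24). Among the clock genes, the difference was positive for Csnk1e (0.33) and Per1 (0.24) and negative for Ciart (-1.15), Rora (-1.11), Per2 (-1.02), Bhlhe40 (-0.79), Tef (-0.71), Cry2 (-0.57), Bhlhe41 (-0.39) and Rorb (-0.30). The immediate early genes had a positive difference in Egr3 (1.11), Maff (0.77) and Fosl1 (0.64). For the ERK feedback and ETS genes it was above 0 in Etv4 (2.07), Areg (1.76), Dusp5 (0.49) and Dusp4 (0.37). Among the YAP and SRF targets it was negative for Vcl (-0.47). The TGF-beta and BMP targets had positive differences in Id1 (0.79) and Smad7 (0.42) and negative ones in Pmepa1 (-0.52). For the WNT and Notch targets it was above 0 in Lef1 (0.91) and Hes1 (0.32). Among the amino acid response genes, the difference was positive for Slc7a5 (0.30) and negative for Vldlr (-1.0). The NRF2 targets had a positive difference in Gclc (0.67) and Srxn1 (0.19). For the glucocorticoid targets it was above 0 in Sgk1 (0.58) and below 0 in Rgcc (-0.83), Mt2 (-0.30) and Mt1 (-0.24). Among the ribosome assembly genes it was positive for Rrp12 (0.63), Ppan (0.60), Rrp9 (0.51) and Heatr1 (0.49). The ribosomal protein genes had a positive difference in Rps6 (0.74), Rpl10a (0.56) and Rpl12 (0.50). For the replication genes it was above 0 in Ccnd1 (1.03), Clspn (0.57) and Tk1 (0.35). Among the mitosis genes it was negative for Ccnb2 (-0.26). The cell cycle inhibitors had a negative difference in Ccng2 (-0.60) and Cdkn1b (-0.38). For the FoxO targets it was above 0 in Txnip (0.75) and below 0 in Sesn1 (-0.50). Among the histone genes it was positive for Hist2h2be (0.66) and Hist1h1c (0.62). The endoplasmic reticulum chaperone genes had a negative difference in Dnajb9 (-0.37), Calr (-0.22) and Pdia4 (-0.22). For the heat shock genes it was above 0 in Hspa4 (0.28) and Hspe1 (0.17). Among the matrix genes, the difference was positive for Has1 (2.01) and negative for Timp3 (-0.70), Thbs1 (-0.51) and Col1a1 (-0.25). The adipogenic genes had positive differences in Cebpb (0.68) and negative ones in Plin2 (-0.37) and Zfp521 (-0.27). For the FGF ligand and receptor genes it was above 0 in Fgf2 (0.74) and below 0 in Sdc1 (-0.34). Among the other growth factor genes it was positive for Pdgfa (0.18). The cytokine genes had a positive difference in Il33 (1.90) and Il1rl1 (0.47). For the cholesterol genes it was below 0 in Fdps (-0.79). Among the LXR targets, the difference was positive for Abcg1 (0.55) and negative for Mylip (-0.58) and Apoe (-0.40). The hypoxia and glycolysis genes had positive differences in Hk2 (0.35) and negative ones in Vegfa (-0.29) and Slc2a1 (-0.20). For the splicing regulators it was above 0 in Srsf2 (0.21) and Tra2a (0.16) and below 0 in Neat1 (-0.25).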

How the results depend on the processing

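The counts of called genes kept within 1.5 times the main ones under every other test, scaling and filter. Vehicle cells had 6215 to 6592 changed genes, against 6475, and the difference between FGF6 and vehicle had 4269 to 4899, against 4615. Library sizes alone moved the split to 3674 higher and 2918 lower and the median of all genes to 0.024 on the log2 scale. Thresholds moved the counts more. An FDR of 0.25 called 7397 differences, and an FDR of 0.05 with at least 1.5-fold called 1053 vehicle genes, of which 371 rose and 682 fell, and 1135 differences.

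Leaving out each library in turn gave 5731 to 6020 changed genes, 2807 to 3013 higher and 2909 to 3081 lower, and 4056 to 4431 differences. Of the 6475 calls, 5587 to 5769 were kept and 0 changed sign. With the replicate number as a block, 6516 genes were called, 3233 higher and 3283 lower, and 4657 differences. Deviations of same-numbered libraries correlated at 0.10, 0.023 and 0.036, which is not above 0.1 for every pair. Of the 6 libraries, 5 correlated best with their own number. Whether the numbers pair the libraries cannot be told from these values and the labels. The main fit used no pairing, and the block is the alternative that does.

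A GC and length offset, added after the data were seen, gave 6512 changed genes, 3068 higher and 3444 lower, and 4899 differences. It turned the sign of Nr1h2 to 0.017 (adjusted p = 0.76 in edgeR) and of mt-Nd4 to -0.016 (adjusted p = 0.77), and Cry2, Hspb1 and mt-Cytb were no longer called with it. The cause was not tested beyond the offset itself. Hspb1 also lost its call under limma with voom, DESeq2, library sizes alone, upper-quartile factors and no filter, and without each library, Lif under voom (adjusted p = 0.069), Fgf21 under DESeq2 (0.059) and Nr1h2 under library sizes alone (0.12) and upper-quartile factors (0.057). Dbp was called by DESeq2 (0.043) and with no filter (0.043). Without single libraries mt-Nd4 lost its call (adjusted p of 0.062 to 0.095), as did the genes named in the report. Of 1447 values of named genes under processing alternatives, 1431 kept their direction and side of the threshold. Medians of the gene lists were less stable, as 42 of 288 moved under other processing and 28 of 192 with a library left out. Small medians turned sign, for p53 targets (-0.083, highest 0.0041), LXR targets (-0.021, highest 0.020), matrix genes (-0.026, highest 0.017), cytokine genes (-0.023, highest 0.0035), splicing regulators (0.048, lowest -0.027) and interferon genes (0.053, lowest -0.10), and the mitochondrially encoded median fell from 0.13 to 0.019 with the GC and length offset. The median of glucocorticoid targets was -0.34 with no low-count filter, against -0.60, and that of histones 0.0061, against 0.33, since more members were then tested. Depth limits genes near the floor of 3 counts, such as Areg and Fgf21 at 8 h.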

Other observations

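Some markers of other cell types were measured at low levels in the vehicle cells. Cd68, a lysosomal protein of macrophages, had means of 11.1 CPM at 4 h and 8.32 CPM at 8 h and fell (log2 fold change -0.41, adjusted p = 1.2e-04, edgeR quasi-likelihood test). The skeletal muscle actin gene Acta1 fell from 6.64 to 3.69 CPM (log2 fold change -0.84, adjusted p = 5.6e-04), and the muscle factors Myod1 (3.27 and 2.60 CPM) and Myog (4.36 and 3.92 CPM) were not called. Krt19, a keratin gene, fell from 1.42 to 0.883 CPM (log2 fold change -0.68, adjusted p = 0.032). Cidec, a lipid droplet gene of mature adipocytes, had 3.20 and 3.38 CPM and was not called.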
